A study of Mus musculus with 10 samples.

Results

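The 10 genes described are immediate early genes of the AP-1 and Egr families and 2 companions of the same response: *Fos*, *Fosb*, *Fosl2*, *Jun*, *Junb*, *Jund*, *Egr1*, *Atf3*, *Ier2* and *Dusp1*. They were taken by symbol from the 53465 genes of the count table, and all 10 passed the filter on low counts that left 16426 genes for testing. Poly-A RNA from microdissected pinna prominences, the outgrowths that form the external ear, was sequenced in bulk at E14.5, in 5 wild-type (WT) and 5 mEC1dup/dup (KI) mouse embryos on a C57BL/6J background. The KI allele was made by CRISPR knock-in and carries an additional copy of mEC1, a conserved enhancer next to *Hmx1*. KI embryos were homozygotes from intercrossed heterozygotes and carry it on each allele. The labels give no dissection date, order or handling time for any embryo, so a difference in handling between the genotypes cannot be told apart from genotype.

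Immediate early genes are transcribed within minutes of a stimulus without new protein synthesis, because the factors that act at their promoters are already present and are switched on by phosphorylation. Fos proteins pair with Jun proteins to form AP-1, a dimeric leucine zipper factor, whereas Jun proteins can also pair with each other. The same genes respond to growth factors, wounding, mechanical strain and the handling of tissue, and in skin AP-1 takes part in the growth and differentiation of keratinocytes.

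Among the 10 genes, *Fosl2* fell and *Jun* rose in the KI pinna, and the other 8 did not pass the test. *Fosl2* fell by 22.6% and *Jun* rose by 17.4%. The test was edgeR's quasi-likelihood test, where a gene was called if its adjusted p did not exceed 0.05 and its average log2 CPM was 1 or more, CPM being counts scaled to the library total after TMM adjustment. By this rule 1.81% of the 16426 tested genes were lower and 0.834% were higher in KI, against 1 and 1 of the 10. In 2 of the 10, *Fos* and *Fosl2*, each KI embryo lay below each WT embryo, which held for 2.75% of all tested genes. In 1, *Jun*, each KI embryo lay above each WT embryo, against 2.33% of all tested genes, and genotypes without overlap in either direction made up 5.07%. At an unadjusted p under 0.05, 3 of the 10 were lower and 1 higher in KI, where 16.2% of all tested genes passed. Fitted differences were negative for 6 of the 10 genes and positive for 4, with a median log2 fold change of -0.14 beside -0.00415 over all tested genes.

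The libraries held 17461544 to 18462073 counts each, and *Hmx1*, the gene next to the duplicated enhancer, had 376 to 526 counts in WT and 976 to 1356 in KI. Other features of the libraries differed between the genotypes too. The share of embryonic globins among globin counts was 18.44% to 23.29% in WT and 32.54% to 35.63% in KI. These ranges did not overlap, so a difference that goes with this share cannot be told apart from genotype. All embryos are labelled E14.5, and whether the genotypes differed in exact stage or in blood maturity was not tested. The 5 WT libraries had 2 to 5 counts of *Xist*, the transcript of the inactive X, and 3088 to 3658 counts of Y-linked genes. The KI libraries had 12812, 19040, 18165, 2096 and 0 *Xist* counts and 639, 36, 31, 3024 and 3293 Y-linked counts in replicates 1 to 5, so KI replicates 1 and 4 held both in large number. Whether each of these 2 libraries came from 1 embryo was not tested, and libraries are called embryos as the study describes them. All WT libraries were rich in Y-linked counts and KI replicates 2 and 3 were not, so sex and genotype were partly confounded. The mitochondrial share was 1.94% to 2.04% in WT and 1.70% to 2.09% in KI.

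The start regions of the 3 genes whose genotypes did not overlap are shown first, and they differ in the matches described below. Each sequence below is the 250 bases before the start of the canonical transcript (GRCm39, GENCODE), read 5′ to 3′ on the strand of the gene, with capitals for matches to the CRE half-site TGACG or the full CRE TGACNTCA, the site bound by CREB, ATF and Jun-ATF dimers. *Fos* lies at chr12:85520658-85524047 on the plus strand and its window at chr12:85520408-85520657. *Fosl2* lies at chr5:32292707-32315186 on the plus strand and its window at chr5:32292457-32292706. *Jun*, a gene of 1 exon, lies at chr4:94937271-94940459 on the minus strand and its window at chr4:94940460-94940709.
Fos: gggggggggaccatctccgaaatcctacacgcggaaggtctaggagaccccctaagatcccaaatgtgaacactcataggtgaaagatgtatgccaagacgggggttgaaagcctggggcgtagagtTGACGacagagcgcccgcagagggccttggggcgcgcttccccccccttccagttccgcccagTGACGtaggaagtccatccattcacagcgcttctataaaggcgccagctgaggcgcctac
Fosl2: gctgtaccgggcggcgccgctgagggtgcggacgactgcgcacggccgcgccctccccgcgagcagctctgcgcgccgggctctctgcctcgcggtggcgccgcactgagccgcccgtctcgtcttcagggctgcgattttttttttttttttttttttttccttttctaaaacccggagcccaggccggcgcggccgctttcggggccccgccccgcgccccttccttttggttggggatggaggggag
Jun: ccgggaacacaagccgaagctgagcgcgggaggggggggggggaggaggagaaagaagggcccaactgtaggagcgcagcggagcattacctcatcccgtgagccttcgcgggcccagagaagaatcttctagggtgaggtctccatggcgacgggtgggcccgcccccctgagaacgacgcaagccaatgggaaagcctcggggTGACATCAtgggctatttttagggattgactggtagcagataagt

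The *Jun* window held a CRE 45 to 38 bases before the start, that of *Fos* held 2 half-sites, and that of *Fosl2* held neither. Over both strands, the CRE was found in 4 of the 10 windows and in 5.16% of 16321 windows of the same length before the starts of tested genes. The shorter half-site, which lies within a CRE whose middle letter N is G, was in 7 of 10 against 21.3%. The other 3 CRE matches are shown with 10 bases on each side, since they belong to genes that did not pass the test: *Jund* at chr8:71151375-71151402 (plus strand, match 214 to 207 bases before the start), *Ier2* at chr8:85389509-85389536 (minus strand, 43 to 36) and *Dusp1* at chr17:26727572-26727599 (minus strand, 96 to 89).
Jund: cccacccccaTGACGTCAacccacaatg
Ier2: ggtgttgcagTGACGTCActctcagtat
Dusp1: gtagggcgggTGACGTCAccgcccggtc

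The AP-1 site TGANTCA was in 0 of the 10 windows and in 4.68% of all windows, and the CArG box, the site of serum response factor, in 0 and 1.20%. The Egr site GCGNGGGCG was in the windows of *Fosb* and *Jund* and in 5.99% of all windows. CAAGTG, the core recognised by HMX factors, was in the window of *Atf3* and in 11% of all windows. These are matches of letters in 250 bases and not measurements of binding, and sites farther from the start were not searched.

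*Fosl2* encodes FRA2, a Fos family protein that, unlike FOS, is made in a sustained way in many tissues. Its level was 66.9, 58.2, 53.9, 46.3 and 51.3 CPM in WT replicates 1 to 5 and 45.1, 43.1, 41.3, 40.0 and 44.5 CPM in KI replicates 1 to 5. The genotypes did not overlap, but the lowest WT embryo lay just above the highest KI embryo. The mean fell from 55.3 ± 7.79 CPM (SD, n = 5) to 42.8 ± 2.13 CPM (SD, n = 5). The log2 fold change was -0.37 with a standard error of 0.08 and an edgeR adjusted p of 0.0353. In bulk tissue, fewer cells of a type and less RNA per cell cannot be told apart. The call was lost, with edgeR adjusted p of up to 0.103, on leaving out WT replicate 1, 2 or 3 or KI replicate 2, 3, 4 or 5, and the log2 fold change over all 10 single omissions ran from -0.43 to -0.29. With a term for the embryonic globin share, whose values do not overlap between the genotypes, the log2 fold change turned to 0.48 (standard error 0.28, edgeR adjusted p = 0.899), and with log2 CPM of *Xist* it was -0.36 (edgeR adjusted p = 0.360). Without KI replicates 1 and 4 it was also -0.36 (edgeR adjusted p = 0.129).

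Markers of several cell types were lower in KI too, where 1.81% of all tested genes were lower and 0.834% higher by edgeR's test. Of 12 keratinocyte markers, 9 were lower in KI by edgeR's test, with a median log2 fold change of -0.80. They are keratins, desmosome or cornification genes and a transcription factor. Some of them had been named by the study from its own test of these data, so this count is not separate evidence. Their summed level was 1989, 1538, 1332, 1087 and 1005 CPM in WT replicates 1 to 5 and 955, 740, 752, 686 and 744 CPM in KI replicates 1 to 5. WT replicates 1, 2 and 3 had the highest values of these sums and of *Fosl2*, in that order, while WT replicates 4 and 5 changed places. Among KI embryos replicate 1 was highest and replicate 4 lowest in both. KI replicates 2, 3 and 5 did not have the order of *Fosl2* in these sums. Fibroblast markers, of which 1 of 8 was lower in KI, had sums of 15118, 14027, 13196, 9285 and 11511 CPM in WT replicates 1 to 5, which is the order of *Fosl2* in those embryos. In KI replicates 1 to 5 the sums were 11163, 10545, 10176, 10251 and 10478 CPM, which is not the order of *Fosl2* there. The sum of WT replicate 4 lay below those of all KI embryos. Skeletal muscle markers were lower in 5 of 10, with sums of 1707 to 2618 CPM in WT and 1001 to 1594 CPM in KI, and mast cell markers in 3 of 5, with sums of 69 to 103 and 49 to 59 CPM. The muscle sums had the order of *Fosl2* in KI but not in WT, where replicate 5 was highest and replicate 2 lowest. The part of any of these cell types in the *Fosl2* difference was not tested.

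**Figure D1:**
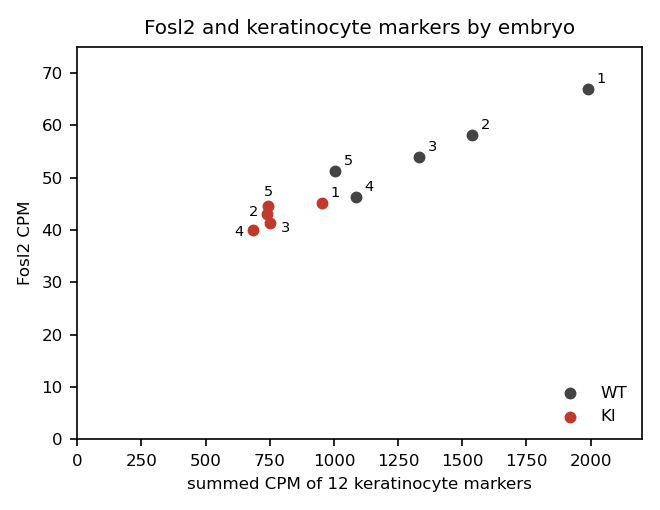
*Fosl2* (CPM, vertical axis) against the summed CPM of 12 keratinocyte markers (horizontal axis), 1 point per embryo with its replicate number, WT in grey and KI in red. WT replicate 1 is highest on both axes, with 1989 CPM of markers and 66.9 CPM of *Fosl2*, and all KI embryos lie at 955 CPM of markers or less.

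*Fos*, the gene that gave the family its name and a short-lived transcript used widely as a mark of recent stimulation, was low. Its raw counts were 104, 91, 122, 96 and 100 in WT and 80, 90, 64, 51 and 64 in KI. These correspond to 6.01, 5.04, 6.85, 5.32 and 5.54 CPM in WT and 4.57, 4.96, 3.48, 2.75 and 3.47 CPM in KI. All KI embryos were below all WT embryos, and KI replicate 2 came close to WT replicate 2. The means were 5.75 ± 0.709 and 3.84 ± 0.901 CPM (SD, n = 5 each), a fitted difference of -33.1%. The log2 fold change of -0.58 (standard error 0.17, 95% interval -0.94 to -0.22) did not pass edgeR's test across all genes (adjusted p = 0.0855), whereas DESeq2's Wald test gave an adjusted p of 0.0287 and limma-voom 0.0693. With KI replicates 4 and 5 as the only KI libraries the log2 fold change of *Fos* was -0.89 (edgeR adjusted p = 0.177). It was -0.75 with a term for *Xist* (edgeR adjusted p = 0.341) and -0.44 with one for the embryonic globin share (edgeR adjusted p = 0.944).

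*Fosb* encodes a close relative of FOS that is also induced briefly. It was low, at 1.91, 2.05, 2.13, 1.27 and 2.38 CPM in WT and 1.49, 1.32, 2.12, 1.46 and 1.62 CPM in KI, and the genotypes overlapped. The log2 fold change was -0.28 (95% interval -0.73 to 0.17, edgeR adjusted p = 0.562). At 23 to 43 counts per library this interval spans a wide range of differences in either direction.

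*Jun* encodes the Jun protein that forms the most active AP-1 dimers with Fos proteins. It was 124.7, 129.5, 125.8, 111.7 and 119.8 CPM in WT replicates 1 to 5 and 146.6, 140.5, 139.0, 147.1 and 144.8 CPM in KI replicates 1 to 5, with no overlap. The mean rose from 122 ± 6.87 to 144 ± 3.63 CPM (SD, n = 5 each). The log2 fold change was 0.23 with a standard error of 0.04 (95% interval 0.14 to 0.32, edgeR adjusted p = 0.0125), and it stayed between 0.20 and 0.26 and past the threshold when any 1 embryo was left out. The call was lost on leaving out KI replicates 1 and 4 together (log2 fold change 0.21, edgeR adjusted p = 0.0809), a set chosen after seeing their *Xist* and Y-linked counts. It was also lost when the log2 level of *Xist* entered the fit (0.24, edgeR adjusted p = 0.244) and with the embryonic globin share (0.53, edgeR adjusted p = 0.899). *Junos*, an antisense RNA, overlaps 16.6% of the exon bases of *Jun* and had 8 to 28 counts per library. For *Jun* too, strand use in counting is not given in the sources used here.

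*Junb*, which encodes a Jun protein that often counters JUN in proliferation, went in the other direction without passing the test. It was 13.9, 16.1, 12.3, 11.2 and 11.4 CPM in WT and 9.26, 9.81, 9.12, 11.4 and 11.8 CPM in KI. KI replicates 1, 2 and 3 were below all WT embryos, while KI replicates 4 and 5 lay within the WT range. The log2 fold change was -0.34 (95% interval -0.59 to -0.08, edgeR adjusted p = 0.166). KI replicates 4 and 5 are also the KI libraries with *Xist* lowest and Y-linked counts near those of WT. With only these 2 KI libraries the log2 fold change of *Junb* was -0.16 (edgeR adjusted p = 0.773), and with a term for *Xist* it was -0.19 (edgeR adjusted p = 0.752). It turned to 0.54 with the embryonic globin share (edgeR adjusted p = 0.899). Of the exon bases of *Junb*, 13.4% are shared with *Prdx2* and *Gm65321* on the other strand. *Prdx2* had 3561 to 4179 counts in WT and 3755 to 4648 in KI, and strand use in counting is not given in the sources used here.

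*Jund* encodes the Jun protein that most cells hold without stimulation, and its count here was small, at 27 to 54 per library. It was 1.56, 1.83, 2.13, 2.38 and 2.99 CPM in WT and 2.97, 2.92, 2.44, 2.80 and 2.33 CPM in KI, and the genotypes overlapped (log2 fold change 0.30, 95% interval -0.10 to 0.71, edgeR adjusted p = 0.479). With a term for the embryonic globin share the log2 fold change of *Jund* turned to -1.18 (edgeR adjusted p = 0.899). Of its exon bases, 52.6% are shared with *Gm11175*, an antisense gene with 0 counts in all 10 libraries, and the use of strand in counting is not given in the sources used here. Counted without strand, reads from the shared bases could not be told apart, so its level is uncertain.

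*Egr1*, a zinc finger factor that is induced by serum, stretch and injury, was 45.8, 43.3, 45.0, 36.3 and 46.2 CPM in WT and 48.5, 39.9, 42.0, 37.5 and 58.3 CPM in KI. The highest and the second lowest of the 10 embryos were both KI, so the genotypes overlapped widely. The log2 fold change was 0.06 (95% interval -0.17 to 0.30, edgeR adjusted p = 0.836), and its sign changed when KI replicate 5 was left out. It was 0.30 with a term for *Xist* (edgeR adjusted p = 0.430) and 0.83 with one for the embryonic globin share (edgeR adjusted p = 0.899).

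*Atf3*, a CREB/ATF family stress gene, was 3.93, 4.21, 3.87, 4.87 and 4.49 CPM in WT and 5.43, 3.58, 2.28, 4.10 and 2.60 CPM in KI. The KI embryos spanned a wider range than WT, and both the highest and the lowest value were KI (log2 fold change -0.25, 95% interval -0.71 to 0.21, edgeR adjusted p = 0.621). For *Atf3* this value moved with single KI embryos, to -0.44 without KI replicate 1, -0.12 without KI replicate 3 and -0.15 without KI replicate 5, and it was -0.60 without KI replicates 1 and 4 (edgeR adjusted p = 0.159). It was -0.55 with a term for *Xist* (edgeR adjusted p = 0.609) and -0.89 with one for the embryonic globin share (edgeR adjusted p = 0.918). *Ier2*, an immediate early gene that encodes a nuclear protein, ran from 41.8 to 49.6 CPM in WT and from 40.6 to 49.2 CPM in KI (log2 fold change 0.02, 95% interval -0.12 to 0.16, edgeR adjusted p = 0.929). With a term for *Xist* its log2 fold change was 0.11 (edgeR adjusted p = 0.704), and with the embryonic globin share 0.49 (edgeR adjusted p = 0.899). With KI replicates 4 and 5 as the only KI libraries it was 0.13 (edgeR adjusted p = 0.562). *Dusp1*, a phosphatase that turns off the MAP kinases upstream of AP-1, was 25.8, 30.2, 26.2, 24.9 and 26.8 CPM in WT and 24.5, 24.8, 24.8, 23.6 and 33.8 CPM in KI, with KI replicate 5 apart from the other 4. Its log2 fold change was -0.03 (95% interval -0.23 to 0.18, edgeR adjusted p = 0.928). This turned to 0.22 with a term for *Xist* (edgeR adjusted p = 0.467) and to 0.40 with one for the embryonic globin share (edgeR adjusted p = 0.918).

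**Figure D2:**
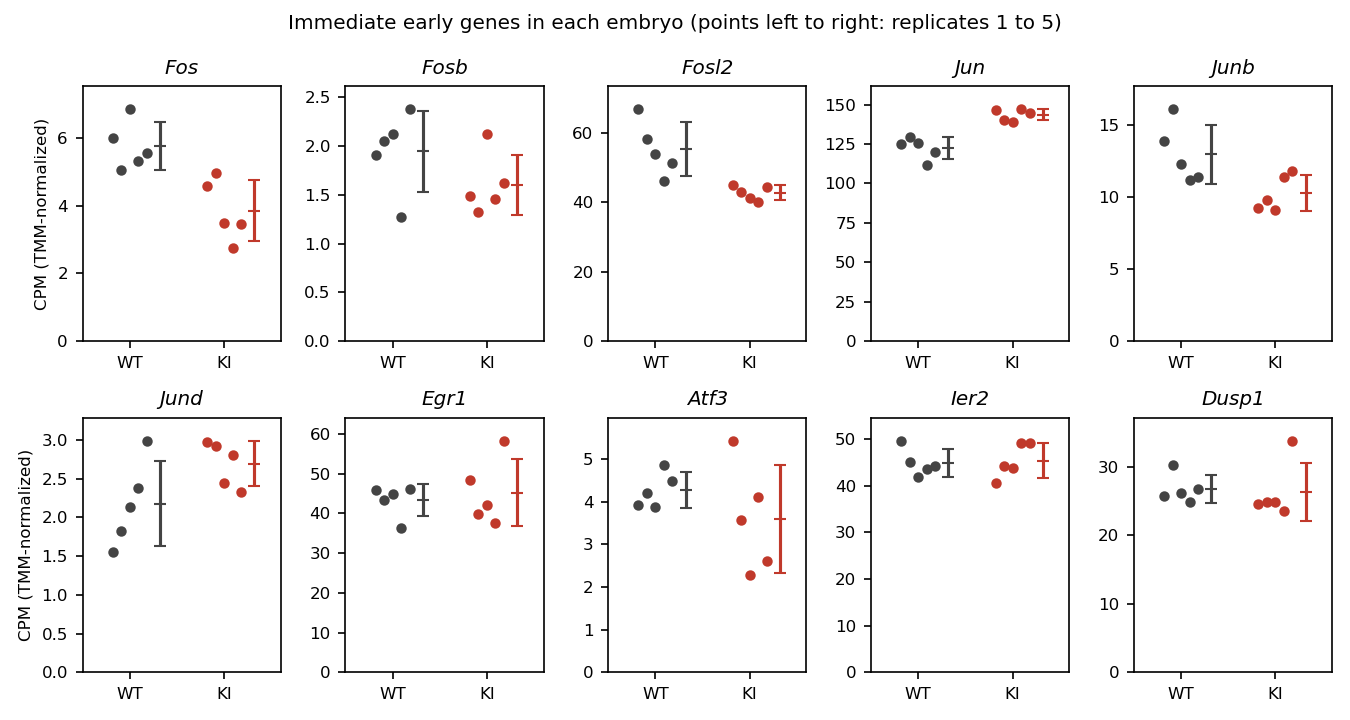
Levels of the 10 genes in CPM (vertical axes, from 0) in each embryo, with 1 point per embryo in the order of replicates 1 to 5, and the mean with SD (n = 5) beside them, WT in grey and KI in red. Only *Fos*, *Fosl2* and *Jun* show genotypes with no overlap, and *Dusp1* shows KI replicate 5 at 33.8 CPM above the others of its group.

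**Figure D3:**
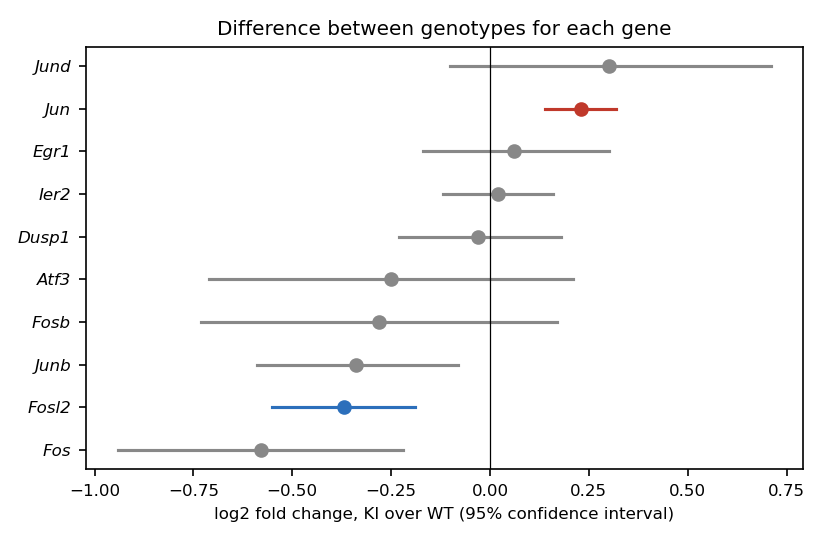
Log2 fold change, KI over WT, with its 95% confidence interval from edgeR's fit for each gene, *Fosl2* in blue and *Jun* in red as the genes that passed the test and the others in grey. The intervals of *Fos* (-0.94 to -0.22) and *Junb* (-0.59 to -0.08) lie below 0, but their adjusted p did not pass the threshold.

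Levels were compared between genes only per kilobase of exon. In WT the order was *Jun* at 38.4 ± 2.15 CPM per kb (SD, n = 5), *Ier2* at 29.4 ± 1.91, *Egr1* at 9.64 ± 0.904, *Dusp1* at 8.05 ± 0.610 and *Junb* at 5.45 ± 0.845 CPM per kb. Below these came *Fosl2* at 5.32 ± 0.750, *Fos* at 2.44 ± 0.301, *Atf3* at 1.75 ± 0.170, *Jund* at 1.31 ± 0.330 and *Fosb* at 0.312 ± 0.0664 CPM per kb. Ranges over the WT embryos overlapped between *Egr1* and *Dusp1*, between *Junb* and *Fosl2* and between *Atf3* and *Jund*, so those neighbours did not differ beyond their spread. Among *Fos*, *Fosb* and *Fosl2*, *Fosl2* was the most abundant by this measure, and *Jun* was among *Jun*, *Junb* and *Jund*. The level of *Jund* is uncertain, since 52.6% of its exon bases are shared with *Gm11175*. Its place in the order, and so the ranking of the Jun genes, is uncertain too.

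**Figure D4:**
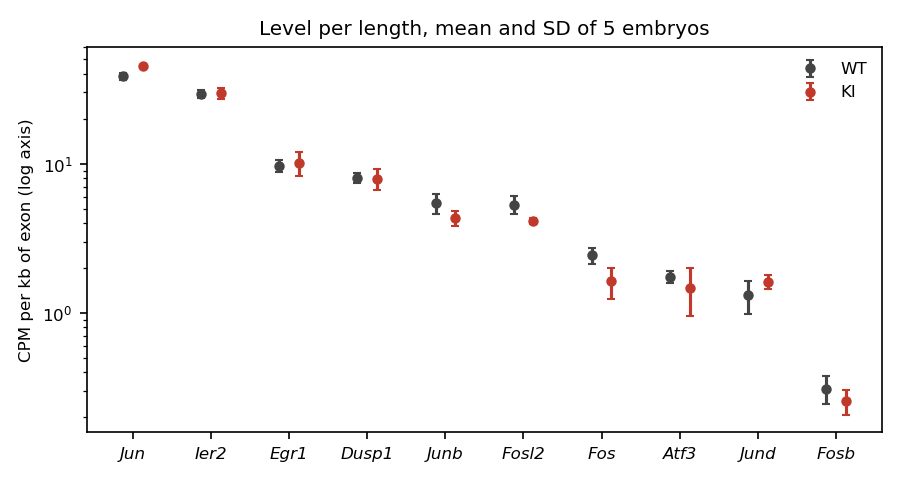
Mean level per kilobase of exon with SD over 5 embryos of each genotype (log axis, CPM per kb), WT in grey and KI in red, in the order of the WT means. *Jun* and *Ier2* stand above the rest and *Fosb*, at 0.312 CPM per kb in WT, stands below.

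The summed level of *Fos*, *Fosb* and *Fosl2*, called the Fos sum here, was 8.07 ± 0.88 CPM per kb in WT and 6.01 ± 0.52 in KI (SD, n = 5 each). This sum, and the ratio and share taken from it below, leave out *Fosl1*, a further Fos family gene. *Fosl1* was 3.34 ± 0.566 CPM in WT and 3.71 ± 0.574 CPM in KI, and the genotypes overlapped (log2 fold change 0.15, edgeR adjusted p = 0.715). Summed over *Jun*, *Junb* and *Jund*, the Jun family had 45.1 ± 2.7 CPM per kb in WT and 51.0 ± 1.5 in KI. The ratio of the Jun sum to the Fos sum ran from 4.94 to 6.01 in WT and from 7.73 upwards in KI, with a mean of 8.54 ± 0.89 against 5.62 ± 0.44 (SD, n = 5 each). These sums rest mostly on the genes that passed the test, since *Fosl2* made up 65.8% of the Fos sum and *Jun* 85.1% of the Jun sum in WT, and they are given with no test. The Jun sum, the share of *Jun* in it and the ratio include *Jund*, whose level is uncertain.

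Whether the genes varied together among embryos of a genotype was asked with *Fos* as the reference, on deviations from the genotype means over all 10 embryos. None of 12 relations, with the other 9 genes and with *Hspa1a*, *Hspa1b* and *Dnajb1*, had a permutation p that passed after Benjamini-Hochberg adjustment. The relations with the other 9 genes ran from r = -0.56 for *Ier2* (rho = -0.49, permutation p = 0.149 and 0.193, adjusted 0.836 and 0.786) to r = 0.30 for *Fosl2* (rho = 0.18, permutation p = 0.279 and 0.594, adjusted 0.836 and 0.786). Without KI replicates 2 and 4, the embryos farthest from the median, these were r = -0.49 and r = 0.25. Other relations moved further without these embryos, from r = -0.02 to 0.30 for *Jun*, from 0.18 to 0.50 for *Atf3*, from -0.16 to -0.46 for *Dusp1*, from 0.16 to -0.72 for *Hspa1a* and from 0.29 to -0.14 for *Hspa1b*. The relation farthest from 0 was with *Dnajb1*, a heat shock co-chaperone, at r = -0.83 and rho = -0.89 (permutation p = 0.0193 and 0.00932, adjusted 0.232 and 0.112), and r was -0.61 without the same 2 embryos. Both can be induced by stress to cells.

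No embryo was high or low in all the genes. WT replicate 4 was the lowest of the WT embryos in 6 of the 10 genes and in 22 of 50 other immediate early genes, against 26.7% of all tested genes. KI replicate 5 was the highest KI embryo in 4 of the 10 and in 13 of the 50, against 21.2% of all tested genes. KI replicate 1 was the lowest KI embryo in 1 of the 10 and in 20 of the 50, against 23.0%. In the 26 heat shock and chaperone genes, WT replicate 4 was instead the highest WT embryo in 12, against 28.0% of all tested genes, and KI replicate 4 the lowest KI embryo in 11, against 25%. The 8 genes whose deviations were most like those of *Fos* over 10 embryos were *Sf1* (r = 0.97), *Fanci* (0.93), *Arfgef1* (0.92), *4933404O12Rik* (0.92), *Map3k7* (0.91), *Top3a* (0.90), *Tmem191* (0.90) and *Lca5* (0.90), out of 14085 genes, and are given as a description. By the same measure, chosen for *Fosl2* after seeing the data, the closest genes to it were *Ptk7* (0.99), *Fbln1* (0.98), *Psap* (0.97), *Kdr* (0.97), *Pkp1* (0.96), *Fam83h* (0.96), *Sfn* (0.96) and *E2f8* (0.96). Of these *Pkp1*, a desmosome gene of the epidermis, *Fam83h* and *Sfn*, an epithelial 14-3-3 gene, were lower in KI by edgeR's test. The closest genes to *Jun* were *Col4a6* (0.96), *Man1a* (0.95), *Chst14* (0.95), *Tfap4* (0.95), *Nfil3* (0.94), *Mttp* (0.94), *Hnrnpl* (0.93) and *Crim1* (0.93). EdgeR's test called none of these.

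Of 54 other immediate early genes 50 were tested by edgeR, and 0 were lower and 1 was higher in KI, near the 2.65% called over all tested genes. At an unadjusted p under 0.05, 6 were lower and 3 higher, near the 16.2% over all tested genes. DESeq2 called 1 lower and limma-voom 0 lower, and 34 of the 50 differences were negative with a median of -0.04. The gene that rose was *Ier5l*, a relative of *Ier2*, from 58.7 ± 3.35 to 68.4 ± 2.53 CPM (SD, n = 5 each). Its genotypes did not overlap, and its log2 fold change was 0.22 (standard error 0.05, edgeR adjusted p = 0.0268). Without WT replicate 1, 2 or 5 or KI replicate 2, 3, 4 or 5, no gene of the list was called higher, and without WT replicate 4 or KI replicate 1, 1 was called lower. *Bhlhe40*, a circadian and stress repressor, had a log2 fold change of -0.37 (edgeR adjusted p = 0.0835), and *Klf10*, an early TGF-beta target, -0.17 (edgeR adjusted p = 0.114). *Plk2*, a stress-induced kinase, had 0.12 (edgeR adjusted p = 0.124), and *Nfkbiz*, an inducible NF-kappaB cofactor, -0.32 (edgeR adjusted p = 0.154).

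Heat shock and chaperone genes were listed because they respond to handling and warming of tissue. All 26 were tested, 2 were lower and 0 higher in KI, beside 1.81% and 0.834% of all tested genes, and the median log2 fold change was 0.02. At an unadjusted p under 0.05, 4 were lower and 2 higher, beside 16.2% of all tested genes in either direction. DESeq2 called 4 lower and limma-voom 2, and each called 0 higher. With the replicate block, edgeR called 4 lower and 0 higher. *Hspb1*, a small heat shock protein that is also abundant in differentiating keratinocytes, fell from 100 ± 14.7 to 64.4 ± 11.2 CPM (log2 fold change -0.64, standard error 0.12, edgeR adjusted p = 0.0132). *Hspb8*, another small heat shock protein found in muscle, fell from 23.7 ± 1.31 to 17.3 ± 2.61 CPM (log2 fold change -0.45, standard error 0.09, edgeR adjusted p = 0.0237). In both genes each KI embryo lay below each WT embryo. This held for 3 of the 26 genes, *Cryab* among them, and for 2.75% of all tested genes. Without WT replicate 1, KI replicate 3 or KI replicate 4, 1 gene of the list was called lower, and without WT replicate 4, 1 was called higher. The keratinocyte and skeletal muscle markers given above were lower too, and their part in these differences was not tested. The inducible Hsp70 gene *Hspa1b* was 11.7 ± 2.65 CPM in WT and 7.89 ± 1.13 CPM in KI (edgeR adjusted p = 0.0717), while *Hspa1a*, a nearly identical copy whose reads can be split with it, was 2.07 ± 0.306 and 2.14 ± 0.366 CPM (log2 fold change 0.05, edgeR adjusted p = 0.931). The lens and muscle chaperone *Cryab* had a log2 fold change of -0.42 (edgeR adjusted p = 0.0612). *Dnajb1* had 0.11 (edgeR adjusted p = 0.248) and *Hsf2*, a heat shock factor, 0.16 (edgeR adjusted p = 0.136).

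Of 32 partners and upstream regulators of AP-1 and Egr factors, 31 were tested. EdgeR called 0 in either direction and DESeq2 called 2 lower, and limma-voom called 0, beside 2.65% called by edgeR over all tested genes. At an unadjusted p under 0.05, 5 were lower and 2 higher, beside 16.2% of all tested genes. *Nab1*, a corepressor that binds EGR proteins, had a log2 fold change of -0.26 (edgeR adjusted p = 0.0539), and *Mapk3*, the ERK1 kinase, -0.16 (edgeR adjusted p = 0.0632). *Rps6ka3*, a kinase downstream of ERK, had -0.16 (edgeR adjusted p = 0.179). Without WT replicate 3, 4 or 5 or KI replicate 5, 1 gene was called lower. With the replicate block 1 was called lower too. The median over the 31 was -0.02.

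**Figure D5:**
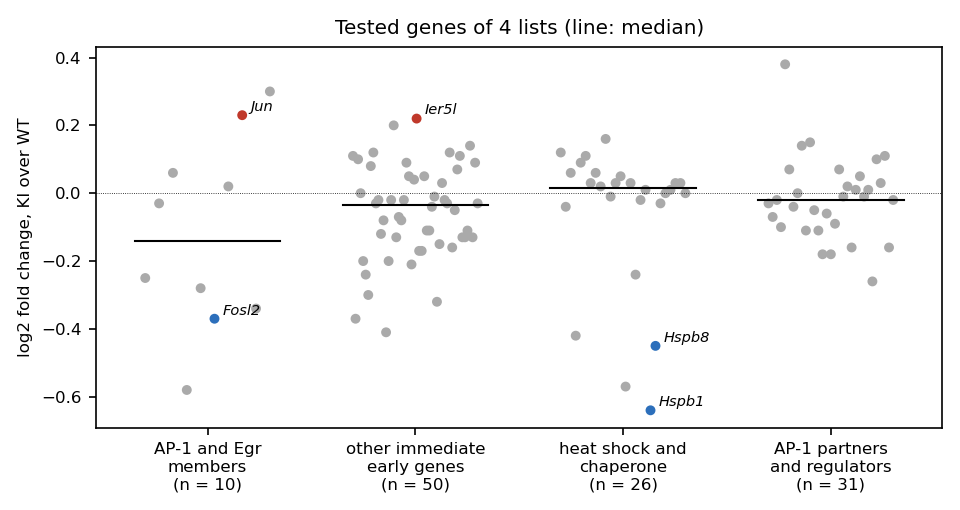
Log2 fold change, KI over WT, of each tested gene in the 4 lists (the 10 genes, other immediate early genes, heat shock and chaperone genes, AP-1 partners and regulators), with genes that passed edgeR's test named. The lists centre near 0, with medians from -0.14 to 0.02, and few genes of any list passed.

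The other cell types the tissue could hold were read from marker lists, none of which had a member at 0 in all libraries. Over all tested genes, edgeR called 1.81% lower and 0.834% higher in KI. Chondrocyte markers were lower in 1 of 6, with a median of -0.49, and their sums were 4566 to 7615 CPM in WT and 4426 to 6045 CPM in KI apart from KI replicate 1, at 2053 CPM. Of 9 erythroid markers 1 was lower and 2 were higher, with sums of 1288 to 2045 CPM in WT and 1452 to 1590 CPM in KI apart from KI replicate 5, at 2942 CPM. KI replicate 5 was also the highest embryo in *Dusp1* and *Egr1*, and the part of its erythroid RNA in those values was not tested. Endothelial and macrophage markers had median log2 fold changes of -0.02 and -0.05. Their sums overlapped between WT and KI, at 432 to 535 and 448 to 504 CPM for endothelial markers and 141 to 168 and 134 to 161 CPM for macrophage markers. Neural and glial markers had a median of -0.51, with sums of 132 to 476 CPM in WT, the highest in WT replicate 4, and 121 to 272 CPM in KI.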

How the data were processed

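Bulk RNA-seq of E14.5 pinna prominences was available for 5 WT and 5 KI embryos, described in the study as siblings from separate litters. The authors trimmed reads, aligned them to GRCm39 with STAR and deposited featureCounts raw counts per gene; the submitters' processing notes also name fastp, FastQC, limma and edgeR. The labels and the methods name different library kits, and strand use is not given in the sources used here. Gene symbols came from GENCODE on GRCm39 (49355 of 53465 identifiers matched; the rest held 0.111% of counts). The members and lists were chosen with earlier results of these data known.

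Counts were filtered with filterByExpr, scaled by TMM and fitted with edgeR 4.0.16 (glmQLFit, glmQLFTest) in R 4.3.3, with Benjamini-Hochberg adjustment over 16426 genes and called where the adjusted p did not exceed 0.05 and the average log2 CPM was 1 or more. Alternatives used DESeq2 1.42.0, limma 3.58.1, other scalings and filters, covariates, a replicate block and left-out embryos. The genes named were all 10 members, *Hmx1*, every called gene of each list with up to 4 more of the smallest p, and the 8 genes most like *Fos*. Named outside this rule, after their values were seen, were the 8 genes most like *Fosl2*, those most like *Jun*, genes that overlap members, *Fosl1* and *Btg1*. *Hspa1a* was named as a relation tested with *Fos*. Of the others, 1 gene that the rule named is not reported here. Correlations used 100000 permutations within genotype. For single embryos, log2 CPM took a prior count of 2. Depth was 17461544 to 18462073 counts per library, so intervals of low genes are wide. Scripts were tested on simulated data.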

Additional observations from a re-analysis of the deposited data

Results flagged for a closer look

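In 58 groups of 5 embryos, over 29 genes (the 10 members, *Hmx1* and the 6 genes of smallest p in each of the other 3 lists), 2 held an embryo far from the other 4, where chance alone gives about 5% of groups. *Dusp1* stood at 33.8 CPM in KI replicate 5, with the other KI embryos at 23.6 to 24.8 CPM, a gap of 0.878 of the range of the group. *Btg1*, an antiproliferative immediate early gene, stood at 217 CPM in KI replicate 4, with the others at 189 to 196 CPM, a gap of 0.734 of the range.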

How the results depend on the processing

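Calls depended on the test, on covariates and on single embryos. Over all tested genes, 298 were lower and 137 higher; DESeq2 gave 507 and 315, an adjusted p of at most 0.01 gave 62 and 16, and one of at most 0.1 gave 489 and 324. With a term for log2 *Xist* 1 was lower and 2 higher, and with the embryonic globin share 0 and 0; genotype and these covariates overlap little. Leaving out 1 embryo gave 120 to 476 lower and 34 to 179 higher genes. Leaving out WT replicate 1, 2 or 3 or KI replicate 2, 3 or 4 cut both counts by more than 1.5 times, and leaving out WT replicate 4 raised the lower count to 476.

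Among the 10 genes, DESeq2 and an adjusted p of at most 0.1 each called 2 lower. Either covariate, an adjusted p of at most 0.01, and 2 sets of embryos chosen after seeing the data, without the KI libraries with both *Xist* and Y-linked counts and with KI replicates 4 and 5 as the only KI libraries, left 0 lower and 0 higher. Single omissions gave 0 to 1 lower and 1 to 1 higher. Among other immediate early genes, DESeq2 and an adjusted p of at most 0.1 each called 1 lower, while either covariate and an adjusted p of at most 0.01 left 0 higher; single omissions gave 0 to 1 lower and 0 to 1 higher. Among heat shock genes, DESeq2, the replicate block and an adjusted p of at most 0.1 each called 4 lower, and either covariate and an adjusted p of at most 0.01 left 0; single omissions gave 1 to 3 lower and 0 to 1 higher. Among AP-1 regulators, DESeq2 and an adjusted p of at most 0.1 each called 2 lower, and no filter, a minimum of 10 counts in every embryo and the replicate block each 1; single omissions gave 0 to 1 lower.

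With the globin covariate the log2 fold change turned to 0.48 for *Fosl2*, 0.54 for *Junb*, -1.18 for *Jund* and 0.40 for *Dusp1*. *Dusp1* also turned with the *Xist* covariate (0.22), without the KI libraries with both *Xist* and Y-linked counts (0.058) and with KI replicates 4 and 5 as the only KI libraries (0.10). Over single omissions it ran from -0.13 to 0.026, *Egr1* from -0.047 to 0.12 and *Ier2* from -0.014 to 0.056. With genotype means kept, r with *Fos* was 0.30 for *Fosb*, 0.35 for *Junb* and -0.38 for *Jund*, and moved to 0.74 for *Fosl2*, -0.71 for *Jun* and 0.70 for *Hspa1b*. Over single omissions r ran from -0.31 to 0.14 for *Fosb*, -0.24 to 0.16 for *Jun*, -0.17 to 0.49 for *Egr1*, -0.17 to 0.50 for *Atf3*, -0.41 to 0.55 for *Hspa1a* and -0.07 to 0.48 for *Hspa1b*. The globin share does not overlap between the genotypes, so that fit separates it poorly from genotype. The standard error was 0.19 in the main fit and 0.75 with the globin covariate for *Jund*, and 0.12 and 0.47 for *Junb*. With genotype means kept, r also includes the difference between the genotypes. The cause of the other changes was not tested.

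WT and KI libraries share replicate numbers, and the correlations of deviations of same-numbered libraries were -0.0558, 0.14, 0.177, 0.345 and 0.205, with a mean of 0.162 against -0.0403 for other pairs. Since replicate 1 went the other way and no label ties a number to a litter, pairing was not established, and it is not excluded. With the replicate block, 488 genes were lower and 200 higher, 405 of the 435 calls were shared, and each of 2 of 5 WT libraries correlated best with its own number. Under the block *Fosl2* had -0.36 (edgeR adjusted p = 0.0093) and *Jun* 0.23 (edgeR adjusted p = 0.0157). *Fosb*, with 23 to 43 counts per library, and *Jund*, with 27 to 54, have few counts and wide intervals.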
